A study of Mus musculus with 5 samples.

Results

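Forelimb mesenchyme was set beside hindlimb mesenchyme, the loose embryonic connective tissue of the limb that goes on to make cartilage, bone, tendon, ligament and dermis. Cells were taken from the columns (cell barcodes) of the 2 limb libraries by what they expressed. A cell needed 100 to 9000 detected genes, at most 10% of its UMIs (unique molecular identifiers, each read as 1 captured transcript) from mitochondrial genes, and at least 2 UMIs of Prrx1, a homeobox gene of limb mesenchyme. It could hold no UMI of Cdh1, Cdh5, Myod1 or Sox10, which mark epithelium, endothelium, muscle precursors and glia. These limits kept 14075 cells of the 54203 limb columns, in a series of 5 libraries and 84440 columns. The forelimb gave 7134 of 28266 columns and the hindlimb 6941 of 25937.

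The limbs came from male mouse embryos at embryonic day 15 by the labels. The labels name the strain C57BL/6N while the study's methods name C57BL/6J, and the data were not used to tell these apart. There was no treatment or engineered allele named for the limbs, and the sex was read from the testes at dissection. The series also holds the glans penis of males of the same labelled strain at postnatal day 6, as 3 libraries, in a study of the bone that forms in the penis. Each limb is 1 library of whole dissociated limb tissue. How the embryos were divided between the libraries is not stated. With 1 library per limb, limb and library cannot be told apart, so no test was run and no p-value is given.

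The members held 55203671 UMIs in the forelimb against 57095590 in the hindlimb, with medians of 6190.5 and 6591 UMIs per cell and of 3.64% and 3.56% mitochondrial UMIs. They were 27.6% of the forelimb columns that passed the gene and mitochondrial limits (95% exact binomial interval 27.0 to 28.1) and 29.0% of such hindlimb columns (28.4 to 29.6). Prrx1 itself, which chose the cells, stood at 534 CPM (the usual scale on which a gene's UMIs are divided by all UMIs of the members and multiplied by 1e6) in the forelimb against 574 in the hindlimb. The columns with 2 Prrx1 UMIs, just inside the limit, numbered 2475 and 1992, and held 65.9 CPM of Tbx5 in the forelimb and 86.1 CPM of Pitx1 in the hindlimb. Those with 1 Prrx1 UMI, just outside it, numbered 3935 and 3278, and held 61.2 and 81.9 CPM of the same genes. Beside Prrx1, the 9 other mesenchyme markers listed for the label, among them Twist1 and Pdgfra, were above 5 CPM in both limbs. This level does not set mesenchyme apart, since most white blood markers given below reached 5 CPM too. In columns with 0 Prrx1 UMIs, Twist1 stood at 168 CPM (forelimb) and 140 (hindlimb), against 403 and 417 in those with 2. Pdgfra stood at 101 and 103 CPM, against 182 and 184. The limb libraries share 203 barcodes, carried by 41 forelimb and 50 hindlimb members, 14 barcodes being members in both.

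Limb position is set early by transcription factors that are read as limb identity genes. Tbx5, a T-box factor, is needed to start the forelimb bud. The homeobox factor Pitx1, the T-box factor Tbx4 and the LIM-homeobox factor Isl1 act in the hindlimb, where Pitx1 is known to act upstream of Tbx4. Along the trunk and along each limb, cells also carry a positional code of Hox genes, which lie in 4 clusters and are expressed in an order that follows their order on the chromosome, so that genes such as Hoxc9 to Hoxc11 belong to the level of the hindlimb.

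Few genes differed between the limbs by a large factor. Of the 11808 genes with at least 5 CPM in either limb (the measured genes), 18 were at least 2-fold higher in the forelimb (0.152%) and 33 in the hindlimb (0.279%), together 0.432%. This balance depends on how cells were chosen, since with Prrx1 counted after each column was thinned to 2000 UMIs (2423 and 2487 cells) the counts were 45 and 35. The ratio was taken as log2 of forelimb over hindlimb CPM with 1 CPM added to each, which understates the change of low genes. Within 1.5-fold lay 98.1% of the measured genes, and the median log2 ratio was -0.01, with 46.8% of the measured genes on the forelimb side of 0 and 53.2% on the hindlimb side. As a measure of how far libraries of 1 tissue lie apart, the same rule was applied to the 3 penis libraries, which gave 14, 13 and 11 genes at least 2-fold apart in the 3 pairs (0.116%, 0.108% and 0.091% of the genes measured in each pair). The limbs have no such replicate. Penis is another tissue at another age, so these counts only give a scale.

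**Figure D1:**
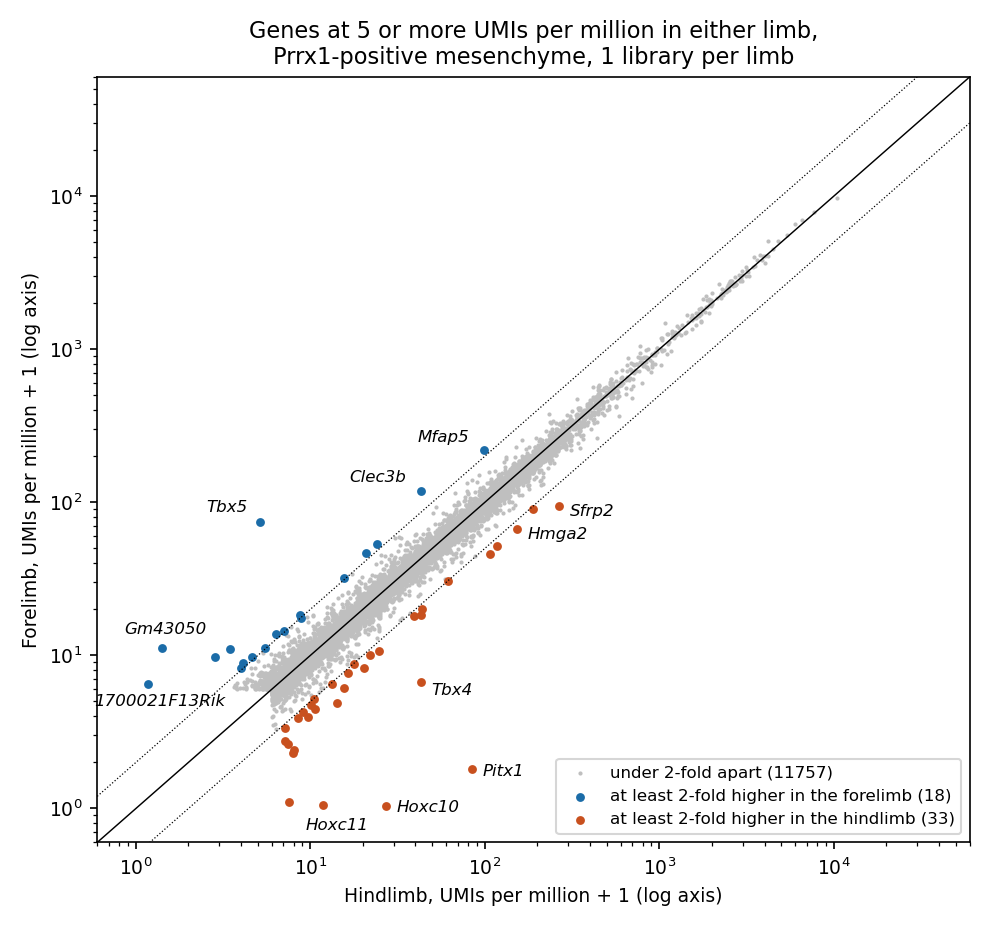
Summed UMIs as CPM + 1 in hindlimb (x axis) and forelimb (y axis) mesenchyme for the 11808 measured genes, both axes logarithmic, with the line of equality and dotted lines at 2-fold. The 18 forelimb genes (blue) and 33 hindlimb genes (orange) lie outside a narrow band that holds 98.1% of the genes within 1.5-fold, and Tbx5, Pitx1 and Hoxc10 lie farthest from it.

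Tbx5 had the largest log2 ratio toward the forelimb with 1 CPM added, at 3.84, although both of its low neighbours described next had larger folds without it. It lies on chromosome 5 from 119832668 to 119885219 (GRCm38, the mm10 build, GENCODE vM21). It stood at 73.2 CPM in the forelimb (95% Poisson interval 70.9 to 75.5, covering counting error only, as do all intervals here) against 4.17 CPM in the hindlimb (3.66 to 4.73), a 17.6-fold difference (15.4 to 20.1). A Tbx5 UMI was found in 35.2% of forelimb cells and 3.14% of hindlimb cells, or in 13.8% and 0.859% at a matched depth of 2000 UMIs per cell. A cell with any Tbx5 held 1.61 UMIs on average in the forelimb against 1.09 in the hindlimb. At such counts a lower level in each cell and fewer cells with the transcript cannot be told apart.

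Both non-coding genes next to Tbx5 on the opposite strand followed it. Gm43050, a lincRNA (long intergenic non-coding RNA) which lies 0.748 kb before the first base of Tbx5, was at 10.1 CPM in the forelimb against 0.403 in the hindlimb, a 25.1-fold difference (16.6 to 40.0). The lincRNA 1700021F13Rik, 24.8 kb from Tbx5, was at 5.54 and 0.175 CPM, a 31.6-fold difference (17.0 to 66.7). Of the 13 genes within 500 kb of Tbx5, 5 were measured, and these were the 2 past the threshold, beside 0.432% of all measured genes. The T-box gene Tbx3, 148 kb away, had 1347 UMIs in the forelimb against 1026 in the hindlimb, a log2 ratio of 0.42 that stays under 2-fold.

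Pitx1, on chromosome 13 from 55825051 to 55836192, showed the reverse pattern. It stood at 0.797 CPM in the forelimb (44 UMIs) against 82.9 CPM in the hindlimb (4734 UMIs), a 104-fold difference (77.4 to 143). A UMI was found in 0.533% of forelimb cells and 37.2% of hindlimb cells. Of all measured genes 0.432% were at least 2-fold apart, so a group of 20 would seldom hold one. None of the 20 other measured genes within 500 kb of Pitx1 was 2-fold apart. The widest of them, named here after its values were seen, was the antisense gene Gm47071, which overlaps Pitx1, with 520 and 912 UMIs and a log2 ratio of -0.70. Whether the counting used strand is not stated, so reads of the pair may not be told apart.

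Tbx4, on chromosome 11 from 85886422 to 85916097, was higher in the hindlimb but present in both limbs. Its level was 5.65 CPM in the forelimb (5.04 to 6.32) against 41.8 in the hindlimb (40.2 to 43.6), a 7.40-fold difference (6.58 to 8.36), with a UMI in 4.09% and 25.2% of cells. The difference was thus smaller than that of Pitx1. Tbx2, the T-box gene beside Tbx4 on the same strand 44.5 kb away, was at 11.5 and 11.2 CPM. None of the 6 measured genes within 500 kb of Tbx4 was 2-fold apart, beside 0.432% of all measured genes. So few genes would seldom hold one at that share.

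Isl1, which acts when the hindlimb bud starts, was low in both limbs at this stage, at 0.362 CPM in the forelimb (20 UMIs) and 2.14 in the hindlimb (122 UMIs). Both lie under the 5 CPM needed to be measured, so Isl1 is not counted among the 33. Its counts differ 5.90-fold (3.66 to 10.0) in the same direction as Pitx1 and Tbx4.

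The promoters of 3 genes with more UMIs in the hindlimb are shown. Tbx4, Isl1 and Sfrp2 were picked by hand, so they are no measure of how often a motif occurs. Isl1 is not among the 33 called genes. They are shown because the factor Pitx1 binds sites with the core TAATCC. Pitx1 is the gene with the widest log2 ratio once 1 CPM is added, at -5.55. The sequences are the 250 bases before each start in RefSeq (GRCm38.p6), 5′ to 3′ on the strand of the gene, from chr11:85896515-85896764 for Tbx4 (plus strand), chr13:116309689-116309938 for Isl1 (minus strand) and chr3:83766071-83766320 for Sfrp2 (plus strand), with TAATCC or its reverse complement GGATTA in capitals.
Tbx4: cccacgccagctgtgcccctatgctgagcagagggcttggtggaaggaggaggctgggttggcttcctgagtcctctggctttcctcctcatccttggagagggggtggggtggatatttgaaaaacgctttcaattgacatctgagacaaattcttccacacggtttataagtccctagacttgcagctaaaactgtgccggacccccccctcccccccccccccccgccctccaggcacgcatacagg
Isl1: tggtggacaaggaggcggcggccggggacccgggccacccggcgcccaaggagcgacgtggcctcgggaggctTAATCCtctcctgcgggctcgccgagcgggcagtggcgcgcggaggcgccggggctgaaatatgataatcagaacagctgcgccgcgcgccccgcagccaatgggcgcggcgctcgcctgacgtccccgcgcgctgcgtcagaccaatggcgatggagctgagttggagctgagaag
Sfrp2: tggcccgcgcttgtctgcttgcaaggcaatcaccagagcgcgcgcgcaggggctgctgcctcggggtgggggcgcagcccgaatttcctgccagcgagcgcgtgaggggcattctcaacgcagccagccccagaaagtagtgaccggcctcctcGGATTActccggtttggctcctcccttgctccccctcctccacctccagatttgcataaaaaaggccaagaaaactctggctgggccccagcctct
The Tbx4 window precedes a RefSeq start that lies inside the GENCODE span given above, and so does not adjoin the first base of that span. The Isl1 window holds 1 match, starting 177 bases before the start, the Sfrp2 window holds 1 at 96 bases, and the Tbx4 window holds none. On either strand the motif lies in 6.25% of all 32851 windows of this length, and in a window of 7.21% of all genes with one and of 6.00% of the measured genes. Among the 18 called hindlimb genes with such a window, 1 (Sfrp2) held it, and among the 9 called forelimb genes with a window, 2 (Dpp4 and Egfem1) did. A second motif, AGGTGT, was searched too. It lay in a window of 3 of these hindlimb genes, 0 of these forelimb genes and 10.9% of the measured genes.

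Identity genes of the opposite limb were not wholly missing. Their level in white blood and endothelial cells, which should lack them, is given beside these counts. In forelimb columns of white blood cells (at least 2 UMIs of Tyrobp and Fcer1g together and none of Prrx1, median 6480.5 UMIs), Tbx5 was at 5.64 CPM, Tbx4 at 0.681 and Pitx1 at 0.0972 (1 UMI). Forelimb muscle columns (at least 2 UMIs of Myod1 and none of Prrx1) held 5.33 CPM of Tbx4 and 3.35 of Pitx1. Hindlimb muscle columns held like amounts, 4.00 of Tbx4 and 3.69 of Pitx1, so muscle is no measure of stray transcripts for these genes. The 5.65 CPM of Tbx4 and 0.797 CPM of Pitx1 in forelimb mesenchyme both lay above the white blood values. Forelimb endothelial columns (at least 2 UMIs of Cdh5 and none of Prrx1) held 2.47 CPM of Tbx4 (6 UMIs, 0.906 to 5.38). They held 0.412 CPM of Pitx1 (1 UMI, 0.0104 to 2.29). The endothelial interval of Tbx4 overlaps that of the mesenchyme (5.04 to 6.32), and that of Pitx1 holds the mesenchyme value. The part of muscle or other stray transcripts in the mesenchyme values was not tested. In hindlimb white blood columns (median 7586 UMIs) Tbx5 was at 0.454 CPM, against 4.17 in the mesenchyme. Hindlimb endothelial columns held 0 UMIs of it.

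Hindlimb cells with Tbx5 were mostly cells with a single UMI of it: 201 held 1, 14 held 2 and 3 held more. Of these 218 cells 33.5% had a Pitx1 UMI (37.3% of cells without Tbx5) and 29.8% a Hoxc10 UMI (14.3% of cells without Tbx5). Only 1 of them had a barcode that is also in the forelimb library. Their median depth was 8188 UMIs, above that of all hindlimb members, and the part of depth in these shares was not tested. In the forelimb, 292 cells held Tbx4, and 46.9% of these also held Tbx5 against 34.7% of the cells without Tbx4. These 292 cells had a median depth of 7780 UMIs, against 6190.5 over all forelimb members, and the part of depth was again not tested.

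**Figure D2:**
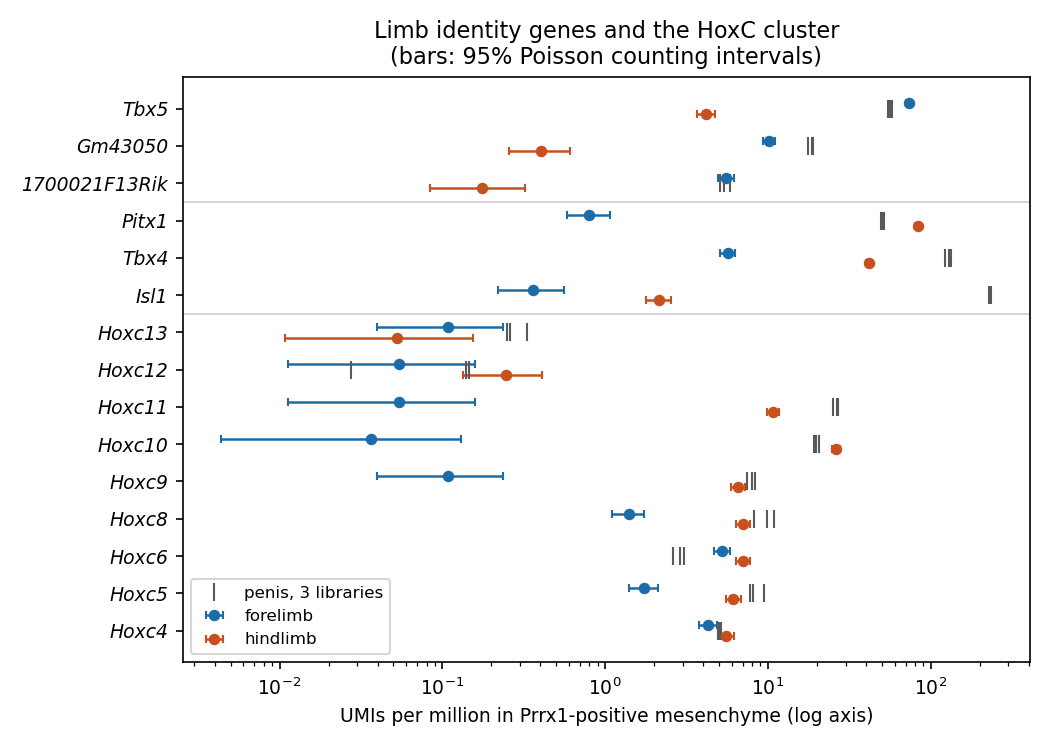
CPM (log axis) of the limb identity genes, both lincRNAs beside Tbx5 and the HoxC cluster in forelimb (blue) and hindlimb (orange) mesenchyme with 95% Poisson counting intervals, and in the 3 penis libraries under the same rule (grey ticks). Tbx5 and its neighbours lie to the right in the forelimb, Pitx1, Tbx4, Isl1 and Hoxc5 to Hoxc11 other than Hoxc6 lie clearly to the right in the hindlimb, and the penis libraries lie close together for most genes.

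The HoxC cluster, on chromosome 15, held the largest group of hindlimb-biased genes. Of its 9 genes 7 were measured, all 7 lay toward the hindlimb (53.2% of all measured genes), and 5 passed 2-fold there (0.279% of all). These 7 had a median log2 ratio of -1.75, beside -0.01 over all measured genes. The summed level of all 9 was 13.01 CPM in the forelimb against 69.6 in the hindlimb. The bias was widest at Hoxc10 and narrowest at Hoxc4 among the measured genes. As counted it did not narrow in order, since Hoxc5 (log2 ratio -1.38) lies between Hoxc6 (-0.37) and Hoxc4 (-0.30). This break rests on Hoxc5 alone, whose annotated span overlaps Hoxc10 and covers Hoxc6, Hoxc8 and Hoxc9. How shared reads were assigned was not checked.

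Hoxc10 gave the widest gap by counts, with 2 UMIs in the forelimb against 1496 in the hindlimb (0.0362 and 26.2 CPM), a ratio of 723 with a counting interval of 200 to 5977. Hoxc11 followed with 3 and 614 UMIs (0.0543 and 10.8 CPM, ratio 198, interval 67.4 to 962), and Hoxc9 with 6 and 375 UMIs (60.4-fold, 27.5 to 166). These 3 genes were close to absent from forelimb mesenchyme, since a UMI was found in 2, 3 and 6 of its 7134 cells.

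Toward Hoxc4 the forelimb had more of the cluster. Hoxc8 stood at 1.39 and 7.04 CPM (5.05-fold, 3.95 to 6.53) and Hoxc5 at 1.74 and 6.13 CPM (3.53-fold, 2.80 to 4.47). With Prrx1 counted after thinning the log2 ratio of Hoxc5 was -0.88 in place of -1.38, and with 5 CPM added those of Hoxc5 and Hoxc8 were -0.72 and -0.91, so neither call holds in every setting. Hoxc6 and Hoxc4 were near equal, with log2 ratios of -0.37 and -0.30. Hoxc12 (3 and 14 UMIs) and Hoxc13 (6 and 3 UMIs) were too low to be measured. In the annotation Hoxc5 runs from 102967443 to 103017429 and so spans Hoxc6, Hoxc8 and Hoxc9 and overlaps Hoxc10, and how reads in shared exons were assigned was not checked here.

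Hotair, a lincRNA on the opposite strand between Hoxc12 and Hoxc11 that is named here after its values were seen, had 0 UMIs in the forelimb against 50 in the hindlimb. Against the floor of 3 UMIs that a count of 0 allows in the forelimb library, it was at least 16.1-fold higher in the hindlimb. It lies under 5 CPM and is not among the measured genes.

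The other Hox clusters differed less, and their ends went opposite ways. In HoxB, Hoxb2 was higher in the forelimb at 8.71 against 1.82 CPM (4.78-fold, 3.86 to 5.97), and Hoxb9 was higher in the hindlimb at 6.97 against 1.30 CPM (5.34-fold, 4.15 to 6.97). With 5 CPM added the log2 ratio of Hoxb9 was -0.93 in place of -1.79, which ends its call. Between them the log2 ratio went from 1.05 for Hoxb3 and 1.08 for Hoxb4 through 0.22 for Hoxb7 to -0.14 for Hoxb8, all under 5 CPM.

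Hoxb9 is also a gene of other cell types in these libraries. Glial columns held 81.3 CPM of it in the forelimb against 102 in the hindlimb, and endothelial columns 5.76 and 22.6. Its mesenchymal values lie below these, and the part of stray transcripts from such cells in them was not tested.

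In HoxD, Hoxd8 passed 2-fold toward the forelimb at 13.5 against 6.02 CPM (log2 ratio 1.05), but not with 5 CPM added (0.75) or after centring by gene span (0.99), and Hoxd9 came next with a log2 ratio of 0.90. Hoxd10 and Hoxd11 lay at 0.39 and 0.32, while Hoxd12 and Hoxd13, which mark the hand and foot, lay slightly the other way at -0.26 and -0.18. Beside 0.432% of all measured genes, none of the 6 measured in HoxA was 2-fold apart. The one farthest from 0 was Hoxa13, another gene of the hand and foot, at 17.3 CPM in the forelimb against 27.6 in the hindlimb (log2 ratio -0.64).

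**Figure D3:**
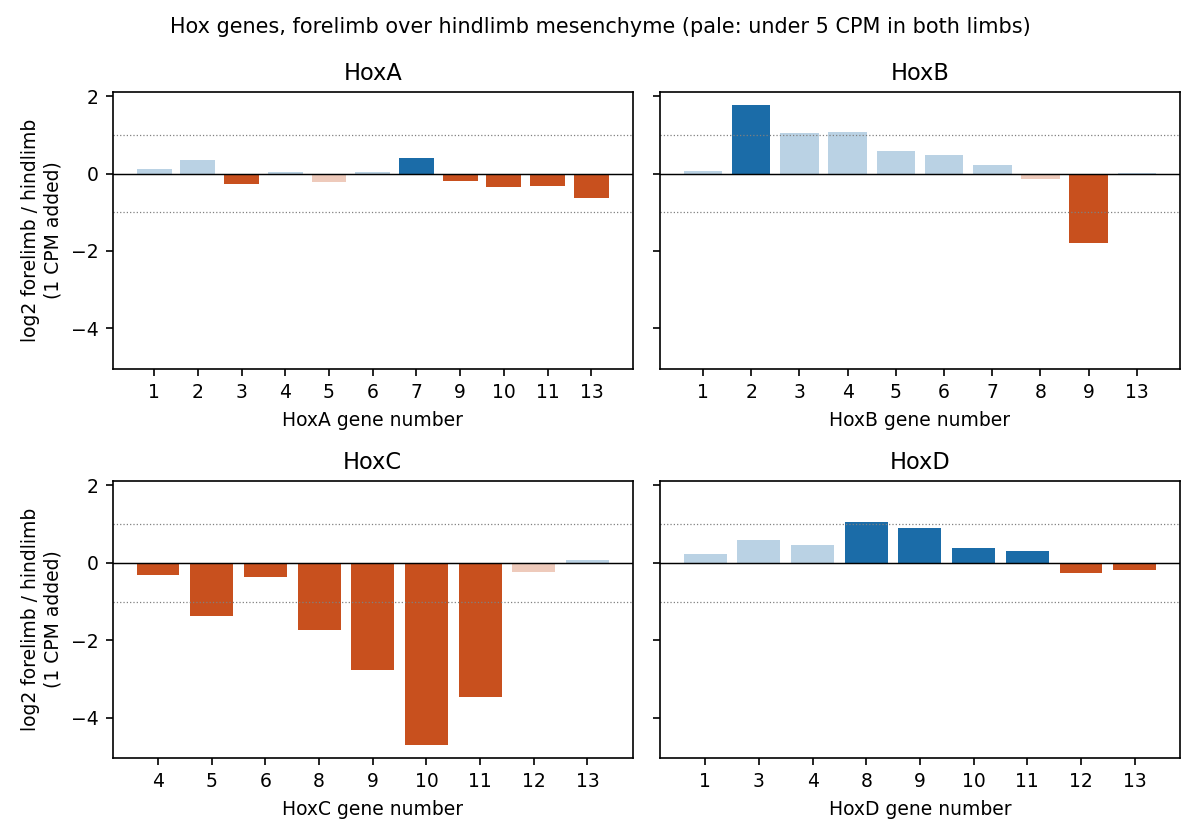
Log2 ratio of forelimb over hindlimb CPM (1 CPM added) for each gene of the 4 Hox clusters in order of gene number, blue toward the forelimb and orange toward the hindlimb, dotted lines at 2-fold, pale bars for genes under 5 CPM in both limbs. HoxC lies toward the hindlimb with its extreme of -4.71 at Hoxc10, HoxB passes from 1.78 at Hoxb2 to -1.79 at Hoxb9, and HoxA and HoxD stay within about 1.

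Cells with the marker genes of each position along the limb were a smaller share of forelimb than of hindlimb members at matched depth. Cells with a UMI of Hoxa13 or Hoxd13 (autopod, the hand or foot) were 27.5% of forelimb and 34.0% of hindlimb members. After each cell was thinned to 2000 UMIs they were 12.98% (903 of 6955) and 15.7% (1076 of 6857), a difference of -2.71 percentage points (-3.88 to -1.54). Cells with Hoxa11 and neither of those genes (zeugopod, the middle segment) were 3.44% and 4.33% after thinning, and cells with at least 2 UMIs of Meis1 and Meis2 and no such Hox gene (proximal) were 2.47% and 3.34%. Hoxa13 and Hoxa11 differed between the limbs themselves, so these shares cannot be told apart from a change in level of the genes that define them.

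The identity genes kept their direction at each position and in each lineage that could be picked out. Tbx5 stood at 94.5, 76.6 and 50.2 CPM in forelimb autopod, zeugopod and proximal cells, against 3.18, 2.63 and 7.59 in the hindlimb. The forelimb level was thus lowest and the hindlimb level highest in the proximal cells. In the hindlimb, Tbx4 fell in level along the same order, at 54.5, 34.3 and 19.8 CPM, while Pitx1 was highest in the zeugopod, at 69.4, 117 and 77.3 CPM.

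Hoxc10 showed the opposite slope to Tbx4. In the hindlimb it stood at 7.94 CPM in autopod, 29.3 in zeugopod and 64.2 in proximal cells, and Hoxc9 ran the same way, with 5.65 CPM in zeugopod and 18.5 in proximal cells. In the forelimb no autopod or zeugopod cell held a Hoxc10 UMI.

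By lineage, cells were grouped by genes of cartilage (Col2a1 and Sox9), bone (Runx2 and Sp7), tendon (Scx and Tnmd), joint (Gdf5) and dermis (Twist2), by the dorsal factor Lmx1b and by the division genes Mki67 and Top2a. The groups overlap and run from 56 cells (forelimb joint) to 1706 (forelimb dermis). Tbx5 in the forelimb ranged from 45.2 CPM in bone-gene cells to 139 in joint-gene cells, and Pitx1 in the hindlimb from 51.8 in dermis-gene to 101 in joint-gene cells. In each of the 10 groups, positions included, between 14 and 18 of the 18 forelimb genes and between 27 and 33 of the 33 hindlimb genes lay on the same side as over all members. Fewer stayed at least 2-fold apart within a group. They were between 10 (autopod) and 15 (dividing) of the 18, and between 15 (tendon-gene) and 28 (zeugopod) of the 33. The cells of the groups are among those that chose the genes, so these counts describe the spread of the bias and are no separate evidence for it.

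**Figure D4:**
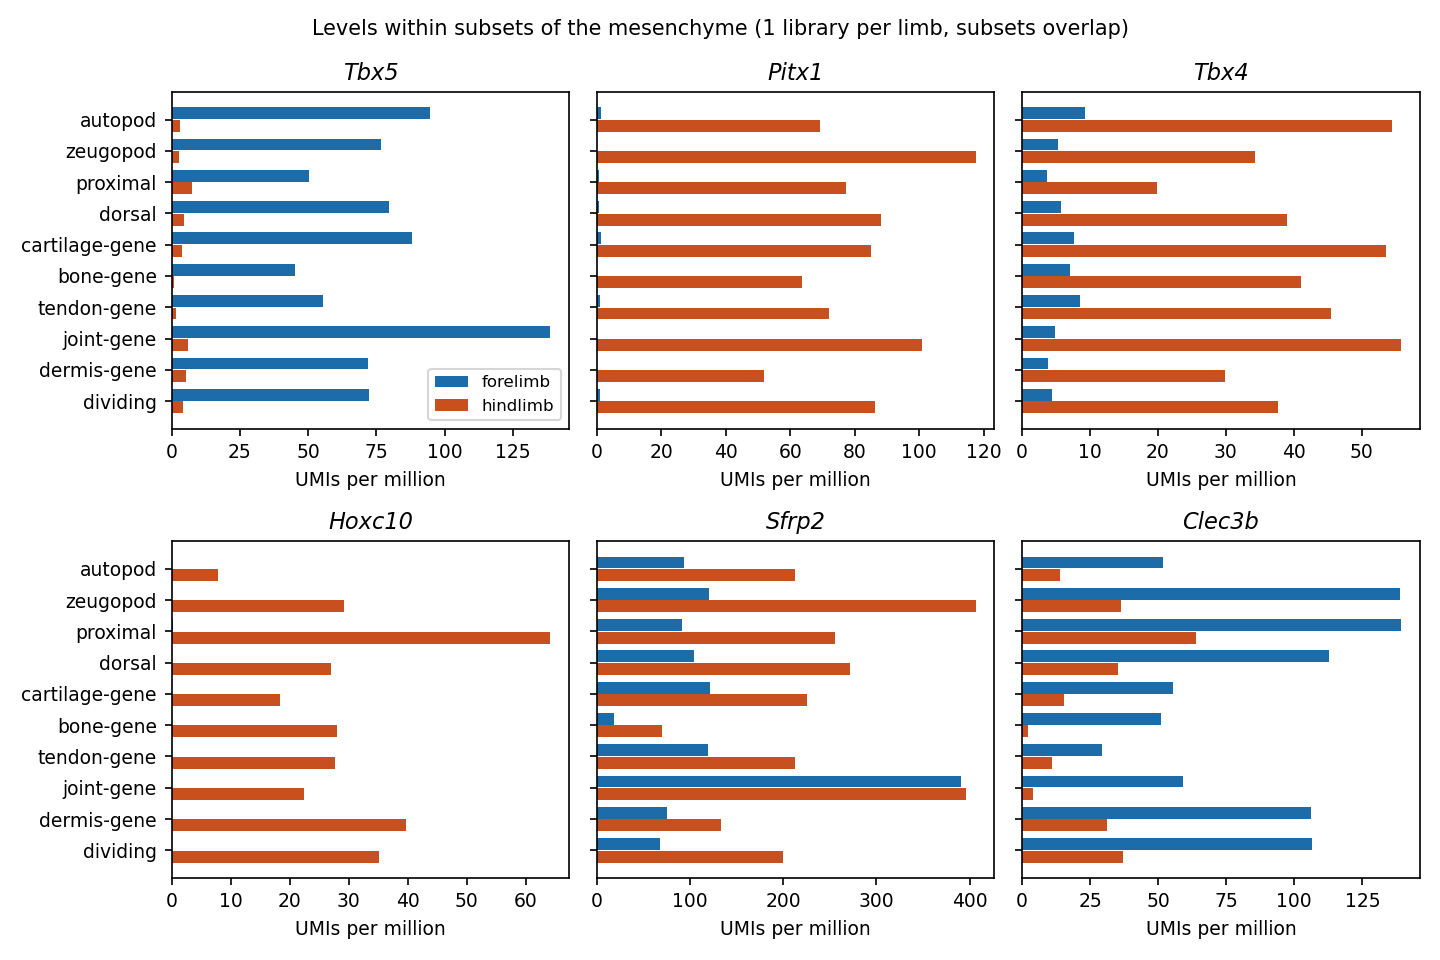
CPM of 6 genes within 10 overlapping groups of mesenchyme cells, forelimb in blue and hindlimb in orange. Tbx5, Pitx1 and Tbx4 keep their direction in each group, Hoxc10 climbs in the hindlimb from 7.94 in the autopod to 64.2 in proximal cells, Sfrp2 is near equal in joint-gene cells (391 and 396), and Clec3b is higher in the forelimb throughout.

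Beyond the positional genes, 4 genes of the forelimb list are described first. Mfap5, a protein of elastic microfibrils, stood at 217 CPM in the forelimb against 98.3 in the hindlimb (2.21-fold, 2.14 to 2.28). Clec3b, which encodes the secreted protein tetranectin, stood at 118 and 41.8 CPM (2.83-fold, 2.70 to 2.96). Igfbp6, a binding protein of insulin-like growth factors, stood at 52.6 and 23.1 CPM (2.28-fold, 2.14 to 2.44). Entpd2, an enzyme that breaks down extracellular nucleotides, stood at 9.94 and 2.47 CPM (4.03-fold, 3.34 to 4.88).

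Most cells with Clec3b also held Mfap5. Of forelimb cells with Clec3b, 75.1% also held Mfap5, against 15.7% of those without Clec3b, and in the hindlimb the shares were 67.3% and 15.0%. Cells with both were 19.4% of the forelimb members (1382 cells, 18.5 to 20.3%) and 8.63% of the hindlimb members (599 cells, 7.98 to 9.32%), and after thinning to 2000 UMIs 7.29% and 2.54%. Cells with both had median depths of 8930.5 UMIs in the forelimb and 9058 in the hindlimb, against 6190.5 and 6591 over all members. The part of depth in the shares of cells with Mfap5 was not tested. This pair of genes was chosen after their values were seen.

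Within those cells some genes were closer between the limbs and others were not. Mfap5 stood at 637 CPM in the forelimb against 456 in the hindlimb (log2 ratio 0.48, beside 1.13 over all members), Igfbp6 at 141 and 102 (0.46), Dpp4, a cell-surface peptidase, at 49.7 and 39.9 (0.31), and Dpt, which encodes the matrix protein dermatopontin, at 319.5 and 269 (0.25). All genes given for these cells were chosen with their values in view. Qpct, an enzyme that modifies the ends of peptides, stayed past 2-fold within them, at 34.8 and 14.5 CPM (1.21, beside 1.06 over all members), the receptor gene Gpr83 lay at the limit (1.00 beside 1.08), and Tbx18 lay at 1.05 (beside 0.89) and Sfrp2 at -1.47 (beside -1.49). Over all members the calls of several of these genes do not hold in every setting: Gpr83 was at 0.77 with Prrx1 counted after thinning, Qpct at 0.98 with at least 1 Prrx1 UMI and Igfbp6 at 0.99 by the mean of each cell's CPM. Since both genes chose the cells, their own values in them are a description.

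The remaining forelimb genes of the 15 with the largest ratio were lower or held by few cells. Ucma, a cartilage matrix protein, stood at 12.9 and 5.36 CPM, with 82.0% of its forelimb UMIs in 1% of the cells, and lay at 97.8 and 33.3 CPM within the cartilage-gene cells. Without cells with 2 or more Col2a1 UMIs its log2 ratio was 0.15 in place of 1.13, which ends its call. Egfem1 stood at 45.7 and 19.9 CPM with 54.9% of its forelimb UMIs in 1% of the cells, and reached 561 and 139 CPM in the joint-gene cells. Its log2 ratio of 1.16 fell under 1 in 3 of the alternative settings, to 0.89 at the lowest. Fam167a, Gpr83 and Sqor lay between 7.23 and 8.79 CPM in the forelimb and between 2.98 and 3.64 in the hindlimb. Cited1 and Dpp4, which lie beyond those 15 and were named after their values were seen, had log2 ratios of 1.04 and 1.00.

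On the hindlimb side, Sfrp2 was the most abundant of the 33 genes. Sfrp2, a secreted modulator of Wnt signalling, stood at 94.1 CPM in the forelimb against 266 in the hindlimb (2.83-fold, 2.74 to 2.92). A UMI was found in 29.4% and 48.1% of cells, and a cell that had any held 2.48 and 4.55 UMIs on average. Gm26771, an antisense gene whose end overlaps that of Sfrp2 by 464 bases, stood at 5.09 and 14.5 CPM.

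Sfrp2 did not differ everywhere. In joint-gene cells, where it was highest in the forelimb, it stood at 391 and 396 CPM, and in zeugopod cells at 120 and 406. Hmga2, a chromatin protein of embryonic growth that declines with age, stood at 66.3 and 153 CPM (2.30-fold, 2.22 to 2.40), with a UMI in 25.8% and 40.4% of cells. It was also present in white blood columns at 45.8 and 62.6 CPM and in glial columns at 216 and 299, so these columns of the hindlimb library held more of it too.

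Hmga2 belongs to a list of genes that mark embryonic timing, of which 10 were measured, 7 lay toward the hindlimb and 1 passed 2-fold (median log2 ratio -0.12). Over all measured genes 53.2% lay toward the hindlimb and 0.279% were at least 2-fold higher there. The growth factor gene Igf2 (870 and 657 CPM) and Dlk1 (1478 and 1081 CPM), which also fall after birth, lay the other way with log2 ratios of 0.40 and 0.45. The list thus did not move one way.

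Spp1, which encodes the bone matrix protein osteopontin, met the rule at 7.23 and 19.4 CPM, but 932 of its 1105 hindlimb UMIs were in a single cell. Without the deepest 10% of cells the log2 ratio was 1.12 toward the forelimb in place of -1.31. Spp1 was found in 2.13% of forelimb cells and 1.82% of hindlimb cells.

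The other hindlimb genes of the 15 with the lowest ratio were low. The potassium channel gene Kcnc2 stood at 3.88 and 13.1 CPM (3.38-fold, 2.90 to 3.96), with a log2 ratio of -0.92 in place of -1.53 where Prrx1 was counted after thinning, which ends its call. Gm15155 stood at 1.65 and 6.46 CPM, Syndig1 at 2.93 and 8.67, while Luzp2 had 193 and 548 UMIs. Further genes of the 33, named here after their values were seen, were Lrrc4c, Cpa6, C130073E24Rik, Lrp1b, Cdh20, Galntl6, Grik2, Fign, Agbl4, Ralyl, Rmst, Syt1, Nrg1, Slc24a2, Ube2ql1 and Pdzrn4, all between 2.04- and 2.60-fold.

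Many of these hindlimb genes are long. The median genomic span was 174 kb over the 33 hindlimb genes, 10.1 kb over the 18 forelimb genes and 28.4 kb over the measured genes, and 19 of the 33 span over 100 kb, as do 17.3% of the measured genes. Across all measured genes the ratio moved with span, from a median log2 of 0.06 under 10 kb to -0.19 over 300 kb. The penis libraries, which come from 1 tissue, showed a slope of the same kind in 2 of their 3 pairs, of 0.05 to -0.08 between libraries 1 and 3 and 0.02 to -0.12 between 2 and 3. The nuclear non-coding RNA Malat1 differed little between the limbs, at 9632 and 10369 CPM, and Kcnq1ot1, another nuclear RNA, stood at 575 and 703 CPM. Where each ratio was centred on the median of its span bin, 10 of the 33 hindlimb genes came under 2-fold, 9 of them over 100 kb, among them Nrg1, Lrp1b, Grik2 and Agbl4. What part gene span has in their ratios was not tested.

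**Figure D5:**
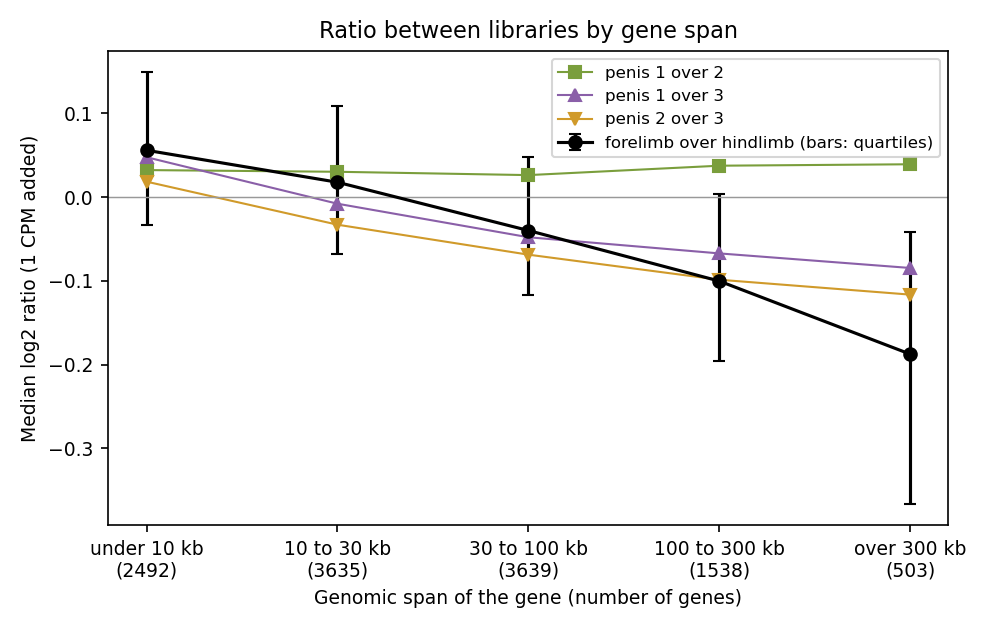
Median log2 ratio (1 CPM added) of the measured genes by genomic span of the gene, for forelimb over hindlimb (black, bars from the first to the third quartile) and for the 3 pairs of penis libraries (coloured), with the number of genes in each bin under its name. The limb ratio goes from 0.06 to -0.19, the penis pairs 1 over 3 and 2 over 3 slope the same way over a smaller range, and penis 1 over 2 stays between 0.03 and 0.04.

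The regulators of limb pattern that lie outside the identity and Hox lists lay mostly within 2-fold, and 0.432% of all measured genes lay past it. Of 10 proximodistal regulators none passed 2-fold and 8 lay toward the hindlimb, beside 53.2% of all measured genes, and Zfhx4, a large homeobox factor, stood at 331 and 437 CPM. Of 12 measured anteroposterior regulators 4 lay toward the forelimb and 8 toward the hindlimb. Of these 12, 1 passed 2-fold toward the forelimb and 1 toward the hindlimb, with log2 ratios of 1.03 and -1.01. The hedgehog receptor gene Ptch1 lay at 68.9 and 93.8 CPM. Among 4 dorsoventral regulators the dorsal factor Lmx1b was the farthest from 0, at 28.1 and 40.2 CPM.

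The 4 measured T-box genes other than Tbx4 and Tbx5 lay on the forelimb side of 0, as do 46.8% of the measured genes, and none passed 2-fold, with Tbx2 at 0.03. Tbx18 was the widest at 58.6 and 31.2 CPM (1.88-fold, 1.77 to 1.99), and Tbx15 followed Tbx3 at 138 and 115 CPM. Of 10 other homeobox regulators, Barx1 was the widest, at 8.48 and 5.22 CPM, and of 4 Iroquois genes Irx3, at 16.5 and 23.8 CPM, neither past 2-fold.

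Among the signalling lists, a single gene of the Wnt list passed 2-fold. Of its 19 measured genes this was Sfrp2, 13 lay toward the forelimb, and Rspo1, an activator of Wnt signalling, came nearest to 2-fold there at 12.4 and 6.46 CPM (log2 ratio 0.84). No gene of the FGF (13 measured), BMP (16) and retinoic acid (10) lists was 2-fold apart. Over all measured genes 46.8% lay toward the forelimb and 0.432% passed 2-fold in either direction. Fgf10, the mesenchymal ligand that keeps the limb bud growing, lay at 41.7 and 62.8 CPM, Gdf5, a ligand of forming joints, at 5.31 and 8.86, Nog, a secreted BMP inhibitor, at 5.92 and 9.56, and the retinoic acid enzyme gene Aldh1a3 at 14.4 and 9.69.

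In the lineage lists few genes passed 2-fold, beside 0.432% of all measured genes. The counts by side stand beside 53.2% of all measured genes on the hindlimb side. Of 19 measured cartilage genes 15 lay toward the hindlimb (median log2 ratio -0.15), among them Sox6 (100.1 and 142 CPM) and Sox9 (83.5 and 116 CPM), factors of cartilage formation. Of 10 tendon genes 8 lay toward the forelimb (median 0.10), the widest being Thbs4 at 49.5 and 37.4 CPM. Of 7 joint genes 5 lay toward the hindlimb (median -0.49) and Sfrp2 alone passed 2-fold. Among 8 bone genes Phex, an enzyme gene of mineralising cells, came closest to 2-fold in the forelimb, at 32.9 and 16.3 CPM, and Spp1 passed it in the hindlimb. Of 10 dermis genes Dpt was the widest, at 138 and 82.8 CPM. Muscle connective tissue (6 genes, median -0.06), division (12 genes, median 0.16) and the response to dissociation (11 genes) held no gene past 2-fold.

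Markers of other cell types also moved between the libraries, and their part in the results was not tested. The 9 measured of 10 white blood markers all lay toward the forelimb (summed 137 and 114 CPM over the list, median log2 ratio 0.22), as did the 5 measured of 10 skeletal muscle markers (86.7 and 53.6 CPM, median 0.70), the 8 mural markers (209.6 and 178 CPM, median 0.22), the 3 measured of 10 endothelial markers (169.7 and 153 CPM) and the single measured glial marker of 8. The 7 measured of 9 red blood markers lay toward the hindlimb (6720 and 7499 CPM, median -0.14), and 99.8% of the members of each limb held a UMI of one of them. The 2 measured of 10 epidermal markers lay at a median of -0.18. No marker of these lists was 2-fold apart, beside 0.432% of all measured genes. At that share so few markers would seldom hold one. Past 1.5-fold lay 3 of the 5 measured skeletal muscle markers, toward the forelimb. Of the 7 measured red blood markers 1 did, toward the hindlimb, and no other marker of these lists did. Of all 11808 measured genes, 101 lay past 1.5-fold toward the forelimb and 125 toward the hindlimb. On the forelimb side of 0 lay 46.8% of the measured genes. The defining genes Cdh1, Cdh5, Myod1 and Sox10 are at 0 by the rule. With no UMI of 8 further genes of these cell types, the 4 identity genes and 8 of the 9 HoxC genes kept their direction, and Hoxc13, with few UMIs, did not. In that setting 13 of the 18 forelimb calls and 28 of the 33 hindlimb calls held, and 7 and 3 other genes were called.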

How the data were processed

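Forelimbs, hindlimbs and glans penis were dissociated and processed with a 10x 3′ kit. The authors aligned reads and counted UMIs with Cell Ranger 7.0.0 against mm10 and deposited the UMI counts per gene and barcode, as raw counts. Whether reads in introns were counted is not given in the sources used here. The limb libraries held 156060382 (forelimb) and 162335993 (hindlimb) UMIs over all columns.

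Members were found by the stated limits in Python 3.11.15 with numpy 2.4.6, scipy 1.17.1 and pandas 2.3.3, and their UMIs were summed per limb and scaled to CPM. Genes with at least 5 CPM in the higher limb were compared as log2 ratios with 1 CPM added, and called at 2-fold. Intervals are exact Poisson or binomial 95% intervals, that of a fold is the exact conditional one, and that of the autopod difference is built from Wilson intervals. They cover counting error only, since cells of 1 library are not replicates. A count of 0 was set to a floor of 3 UMIs. Shares were also taken after thinning cells to 2000 UMIs, which left out 179 forelimb and 84 hindlimb members. No doublet caller was run. An alternative leaves out the deepest 10% of members. The procedure was tested on simulated data. Gene positions come from GENCODE vM21 and promoters from RefSeq.

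Named genes are the identity and HoxC lists, the 15 genes with the largest and the 15 with the smallest ratio, and up to 4 genes of each other list. Some genes that the rule names are not reported here. Genes outside that rule are marked as chosen after their values were seen. The members and gene lists were chosen with earlier results of these data known. Alternatives changed the member limits, the scaling, the added CPM and the CPM limit.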

Additional observations from a re-analysis of the deposited data

How the results depend on the processing

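No paired analysis was possible because each limb is 1 library and no test was run. In 16 alternative settings, the log2 ratios of 35 named genes gave 560 values, of which 469 moved by no more than the counting error of the value reported, and the others by more. The sign changed in 5 of the 560, of which 2 are Hoxc13 (-0.11 with at least 1 Prrx1 UMI and -0.05 without cells with a UMI of 8 further lineage genes, against 0.07) and 3 are Spp1, at 0.86 without cells with 2 or more Col2a1 UMIs, 0.82 without cells with a UMI of 8 further lineage genes and 1.12 without the deepest 10% of cells. Tbx5 ranged from 3.09 to 4.27, Pitx1 from -6.53 to -3.92, Tbx4 from -2.98 to -2.14 and Hoxc10 from -7.59 to -2.63. The forelimb members numbered 11069 with at least 1 Prrx1 UMI. With Prrx1 counted after thinning, the members were 2423 (forelimb) and 2487 (hindlimb), and the balance turned, with 45 genes 2-fold higher in the forelimb, among them 15 of the 18, and 35 in the hindlimb, among them 23 of the 33. Of the 30 called genes named by the rule, 10 came under 2-fold in a setting other than that with 5 CPM added (Egfem1, Gpr83, Hoxc5, Hoxd8, Igfbp6, Kcnc2, Qpct, Spp1, Sqor and Ucma). Without cells with a UMI of the 8 further genes, they were 3943 and 4032. With 5 CPM added, 9 genes (forelimb) and 12 (hindlimb) were called, and with at least 20 CPM required, 6 and 14, settings that by construction call fewer low genes. In the other settings the counts lay between 13 and 23 (forelimb) and between 23 and 42 (hindlimb), the 23 being after centring by gene span, a setting chosen after seeing the data, as was the weighting of limb positions. The autopod difference lay between -3.79 and -2.16 percentage points.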

Other observations

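Cells other than mesenchyme were picked by 2 or more UMIs of a marker and none of Prrx1. Among them muscle columns held Hoxc8 to Hoxc11 in the hindlimb alone. In the other cell types most of these genes also had more UMIs in the hindlimb, at low counts. Muscle columns (Myod1, 658 in the forelimb and 572 in the hindlimb) held no UMI of Hoxc8, Hoxc9, Hoxc10 or Hoxc11 in the forelimb. In the hindlimb they held 8.30 CPM of Hoxc8, 17.1 of Hoxc9, 29.2 of Hoxc10 and 11.8 of Hoxc11. The same columns differed little in Pitx1, at 3.35 CPM (forelimb) and 3.69 (hindlimb), and in Tbx4, at 5.33 and 4.00 CPM. White blood columns of the hindlimb held 1.73 CPM of Hoxc10, and a UMI of it was found in 1.13% of them. In forelimb and hindlimb, white blood columns held 0 and 19 UMIs of Hoxc10 and 2 and 13 of Hoxc11. They held 1 and 8 of Hoxc8 and 0 and 4 of Hoxc9. Epidermal columns (Cdh1, 45 and 47) held Hoxc8 at 17.1 and 21.1 CPM (10 and 11 UMIs) and Hoxc9 at 10.2 and 7.68 CPM. They held 3 and 10 UMIs of Hoxc10 and 3 and 6 of Hoxc11. Endothelial columns held 1 UMI of Hoxc8 in each limb, with 0 and 7 of Hoxc9, 0 and 2 of Hoxc10 and 0 and 2 of Hoxc11. Glial columns held 0 and 1 of Hoxc8, 0 and 3 of Hoxc9, 0 and 3 of Hoxc10 and none of Hoxc11 in either limb. The part of stray transcripts in these counts was not tested. These columns are 1 library per limb and have no replicate.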
